A study of Drosophila melanogaster with 12 samples.

Results

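The transcripts described here were recovered less well with an antibody against Brain tumor (BRAT) than with a control antibody, while their recovery with Pumilio (PUM) stayed within 1.5-fold of the control on average. They were chosen by their measured values. For each feature, a log2 ratio was taken as RIP minus control of the same replicate number, and a member had a mean BRAT ratio of -1 or lower (at least 2-fold less), all 3 BRAT ratios below 0, and a mean PUM ratio between -0.585 and 0.585. Of 7186 features with values, 384 met the BRAT threshold, 377 of these were below 0 in every replicate, and 246 (3.42% of all features) also met the PUM condition. Of the others of the 377, 126 had a mean PUM ratio under the window and are called lower in both RIPs below. A further 5 had one above it.

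The values came from RNA co-immunoprecipitation read on microarrays (RIP-Chip), in which a protein is pulled out of an extract and the RNA attached to it is measured. Extracts were made from Drosophila embryos of the w1118 strain, aged 0 to 3 h, a laboratory strain with a mutation in the white gene that all groups share. No group was treated. The BRAT RIP used a synthetic Fab directed at BRAT, the PUM RIP used one directed at PUM, and the control RIP used the Fab C1, each with 3 biological replicates. The same 3 control preparations were normalized together with the BRAT RIPs, here called the BRAT set, and again together with the PUM RIPs, the PUM set. In this way 9 preparations fill 12 columns. A RIP of a whole embryo extract does not show which cells the RNA came from, and lower recovery of a transcript cannot be told apart from higher recovery of the rest, because values are relative within an array.

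BRAT belongs to the TRIM-NHL family of proteins and binds RNA through its NHL domain, while PUM is a founding member of the PUF family and binds RNA through its Pumilio homology domain. Both proteins repress maternal mRNAs in the early embryo, among them the hunchback mRNA, and they act while the embryo passes from maternal to zygotic control of development. A ratio below 0 in such an assay states that a transcript was recovered more weakly than with the control Fab. The features carry FlyBase transcript identifiers, no table used here paired a member with its gene (0 of 246), and members are therefore described by identifier and by value, without gene functions. For the same reason the lists of early embryo, follicle cell and differentiated cell markers could not be applied to check the labelled tissue.

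Each set was quantile-normalized, which makes the signal distributions of its arrays alike. The medians of the arrays were therefore nearly the same, 11.59 to 11.65 in the BRAT set and 11.83 to 11.86 in the PUM set, in log2 signal. Replicates of a group correlated across features with Pearson r between 0.926 and 0.968, and features are not independent replicates. Over all features the median BRAT ratio was -0.15, so the zero of the BRAT ratios lay slightly above the bulk of the features. Setting the median ratio of every replicate to 0 raised the BRAT ratios by 0.13, and 136 features then met the rule, all of them among the 246.

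The members' mean BRAT ratios reached -2.09 at the lowest and had a median of -1.16, which is a 2.23-fold lower signal in the BRAT RIP. The middle of the distribution was narrow, with quartiles of -1.27 and -1.06, and 14 members lay at -1.5 or lower. A single member, FBtr0113873, was lower than -2. These ratios chose the members, so they are given as a description without a test. The 126 features lower in both RIPs had a similar median of -1.23 but a longer tail, down to -4.99.

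**Figure D1:**
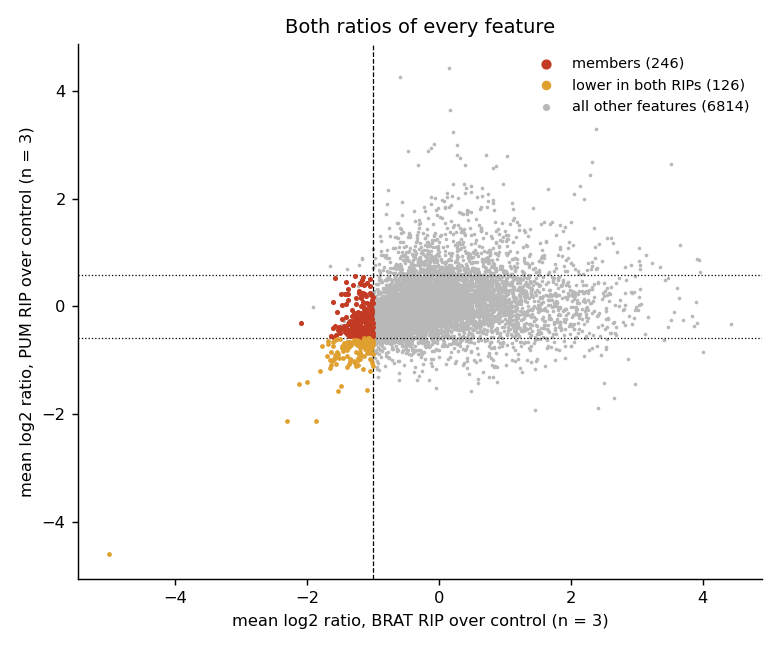
Mean log2 ratio of the BRAT RIP over its control (x axis) and of the PUM RIP over its control (y axis) for each of 7186 features, as means of 3 replicates. The dashed line is the BRAT threshold and the dotted lines are the limits of the PUM window. The members lie close to the dashed line, with 14 of the 246 at -1.5 or lower, and 197 of them lie below 0 on the y axis.

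FBtr0113873 had log2 signals of 8.86, 7.40 and 9.01 in the BRAT RIP, against 10.27, 11.02 and 10.25 in the control RIP. The groups did not overlap, but replicate 2 was the lowest in the BRAT RIP and the highest in the control RIP. Its ratios were therefore -1.41, -3.62 and -1.24, with a mean of -2.09 ± 1.33 (SD, n = 3). In the PUM RIP the same transcript had signals of 10.26, 10.55 and 10.59, against 10.53, 11.26 and 10.51 in the control RIP of that set, and a mean ratio of -0.30.

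Other members near the low end were more even between replicates. FBtr0077179 had log2 signals of 10.94, 11.24 and 11.02 in the BRAT RIP, against 12.64, 12.57 and 12.79 in the control RIP. Each replicate was thus more than 2-fold lower with BRAT, and the mean ratio was -1.60 ± 0.24 (SD, n = 3), beside a PUM ratio of -0.41. FBtr0074844 had the same mean BRAT ratio of -1.60 with a smaller spread of 0.06 (SD, n = 3), from signals of 8.72, 9.23 and 9.43 in the BRAT RIP against 10.38, 10.81 and 10.99 in the control RIP. Its PUM ratio was 0.09, which placed it near the middle of the PUM window.

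FBtr0085407 stood at the opposite edge of the PUM window. It had log2 signals of 8.92, 9.23 and 9.25 in the BRAT RIP, against 10.59, 10.71 and 10.81 in the control RIP, a mean ratio of -1.57. With PUM its signals were 11.54, 11.42 and 11.90, against 10.91, 11.26 and 11.10 in the control RIP, a mean ratio of 0.53, with every PUM value above every control value. FBtr0083574, with a nearly equal BRAT ratio of -1.58, had a PUM ratio of -0.58 and so lay just inside the lower limit of the window. Members with like BRAT ratios therefore differed by more than 2-fold in their PUM ratios.

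**Figure D2:**
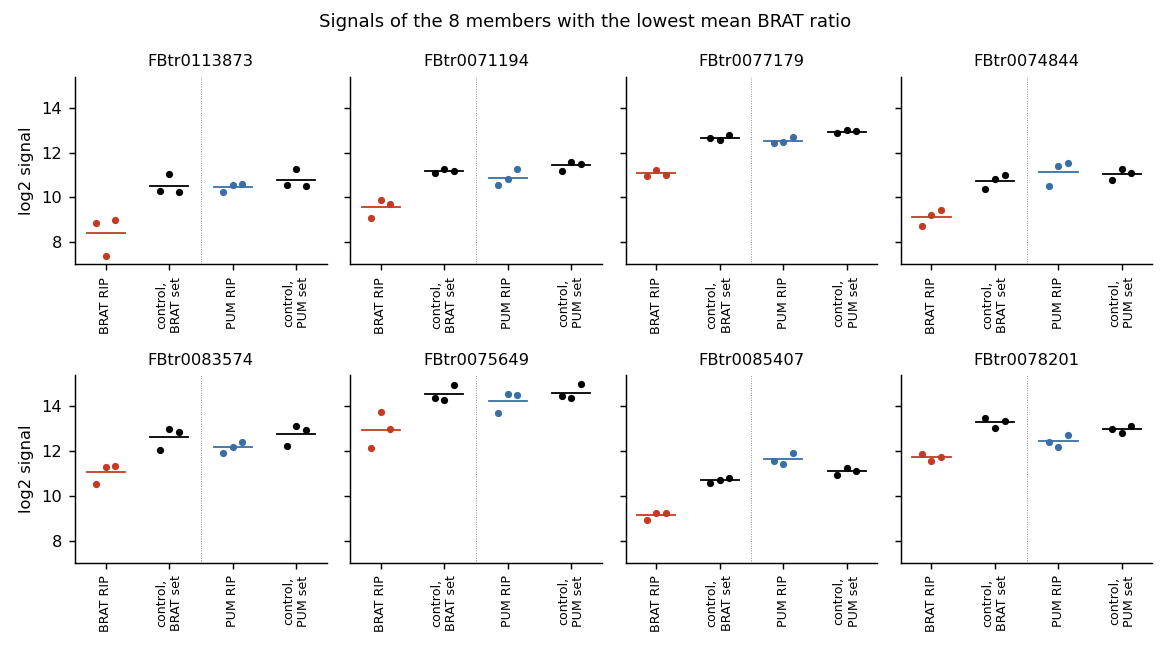
Log2 signals (y axis) of the 8 members with the lowest mean BRAT ratio in the BRAT RIP, the control RIP of the BRAT set, the PUM RIP and the control RIP of the PUM set (x axis), with a point for each replicate from 1 at the left to 3 at the right and a bar at the mean. Signals were normalized separately on either side of the dotted line. FBtr0113873 and FBtr0075649 show the widest spread between replicates in the BRAT RIP, and FBtr0085407 lies above its control in the PUM RIP.

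The mean can hide an uneven set of replicates, and 74 of the 246 members (30.1%) had all 3 BRAT ratios at -1 or lower. The share was 48.4% of the features lower in both RIPs and 1.93% of all features. FBtr0075649 had ratios of -2.22, -0.56 and -1.94, so that replicate 2 was the highest by far. The most even member was FBtr0087517, with log2 signals of 12.18, 12.51 and 12.69 in the BRAT RIP against 13.18, 13.52 and 13.70 in the control RIP and an SD of its 3 ratios of 0.0067. Over the members the median SD of the 3 BRAT ratios was 0.27, against 0.28 over all features.

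FBtr0079235 was uneven in another way and was chosen for mention after its values were seen. It had log2 signals of 8.93, 12.39 and 12.58 in the BRAT RIP, against 12.30, 12.49 and 12.66 in the control RIP. Its ratios were -3.37, -0.10 and -0.09, and it was the member that did not reach a limma call in the comparison described next. Its membership rested on replicate 1.

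In the fit across all features, paired by replicate number, 245 of the 246 members were called lower in the BRAT RIP by limma, with a Benjamini-Hochberg adjusted p under 0.05 and at least a 1.5-fold difference, where 21.1% of all features were. The rule used this contrast, so nothing is read from that count. All 3 BRAT signals lay under all 3 control signals for 227 members (92.3%), against 25.9% of all features, and the rule favors this too. Of all calls in the BRAT RIP, 47.5% were higher as deposited and 60.7% after centering, which left 1036 features called lower. Leaving out the pairing by replicate number gave 228 members called lower and 931 features, against 1519 features with it.

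By replicate, the members' median BRAT ratios were -1.24, -1.13 and -1.15 in replicates 1, 2 and 3, against -0.17, -0.09 and -0.12 over all features. The lowest of a member's 3 ratios was that of replicate 1 for 112 members (45.5%), which was also the most frequent case over all features (38.5%). It was that of replicate 2 for 58 members and of replicate 3 for 76. The labels give Cy5 as the dye of replicate 3 and Cy3 as that of the other replicates. The members' median PUM ratio was -0.17 in replicate 3, against -0.31 and -0.30 in replicates 1 and 2. The part of the dye in the BRAT and PUM medians was not tested.

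**Figure D3:**
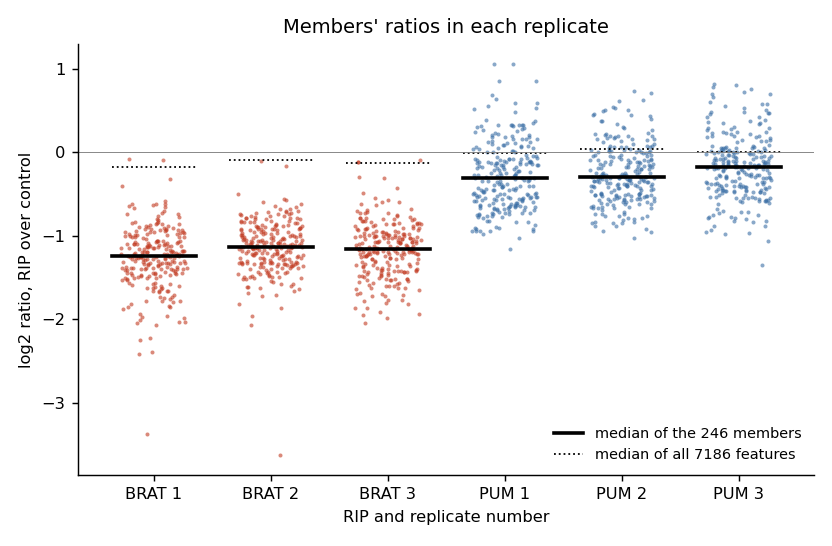
Log2 ratios of RIP over control (y axis) of the 246 members in each replicate of the BRAT RIP and of the PUM RIP (x axis), a point per member. Solid bars are the members' medians and dotted bars are the medians of all 7186 features. Every BRAT ratio lies below 0 by the rule, and the members' PUM medians of -0.31, -0.30 and -0.17 lie below those of all features.

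The rule also used the mean PUM ratio, so its range is fixed, but where members fell within the window was not. Mean PUM ratios of the members had a median of -0.29 (1.22-fold lower), with quartiles of -0.43 and -0.10. They were below 0 for 197 members (80.1%), against 49.5% of all features, and above 0 for 49. Both ratios use the same 3 control preparations, so a high control value lowers both at once. As a set the members were not centered on a PUM ratio of 0.

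In single replicates of the PUM RIP, all 3 ratios were below 0 for 125 members (50.8%), against 24.2% of all features. No ratio was below 0 for 24 members (9.76%), against 25.8%. The mean hid larger single values, since all 3 PUM ratios lay inside the window for 113 members (45.9%). The share over all features was 48.6%. That base includes features with a mean PUM ratio outside the window, which cannot qualify, so the shares are not of like sets. All PUM signals lay under all control signals for 49 members (19.9%), against 11.6% of all features, and above them for 11 (4.47%), against 12.5%. For the other 186 members the PUM and control signals overlapped.

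No member was called in the PUM RIP by limma with an adjusted p under 0.05 in either direction, where 3.58% of all features were called lower and 6.96% higher. At an unadjusted p under 0.05, 65 members (26.4%) were lower, against 13.0% of all features, and 10 (4.07%) were higher, against 15.7%. These counts rest on the window, which keeps out large mean differences. Without replicate 3, FBtr0070096 and FBtr0084171 were called lower with PUM, with limma adjusted p-values of 0.0444 and 0.0494. FBtr0070096 had PUM ratios of -0.95, -0.80 and 0.34, so that replicate 3 alone brought its mean inside the window.

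Divided by their place in the PUM window, the members had BRAT ratios as follows. The 123 members with a mean PUM ratio under -0.2925 had a median BRAT ratio of -1.16, and the 74 members between there and 0 had one of -1.13. The 36 members between 0 and 0.2925 had a median of -1.16, and the 13 above that had one of -1.19. The BRAT threshold holds these medians close together, so no trend or lack of one is read from them.

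The difference between the 2 ratios within a replicate number takes out most of the shared control, but the control copies were normalized apart and do not cancel fully. The copies differed, BRAT set minus PUM set and averaged over replicates, by -0.76 to 0.31 over the members, with a median of -0.14, and the median over all features was -0.19. For FBtr0087736 the mean control signals were 8.20 in the BRAT set and 8.97 in the PUM set, and that residual remains in its difference. The mean of BRAT ratio minus PUM ratio ran between -2.10 and -0.43 over the members, with a median of -0.92. The limma test of this difference called 226 members lower with BRAT than with PUM (91.9%), where 22.2% of all features were, and nothing is read from that count because the rule used both ratios. Over all features that test gave 1593 lower and 1236 higher calls (56.3% lower) with the values as deposited. With each replicate's ratios centered it gave 1077 lower and 1482 higher calls (42.1% lower). The zero of the difference is therefore not settled to within the 0.14 by which centering moved it.

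The remaining 20 members were not called different between BRAT and PUM with both criteria. Their differences were the smallest of the set, -0.57 to -0.43, and their limma adjusted p-values ran between 0.0352 and 0.114. All 20 thus fell short of the 1.5-fold threshold. At any fold, 231 members had an adjusted p under 0.05 by limma, so most of the 20 missed the p threshold as well. All 20 had a mean PUM ratio under -0.2925, where 103 of 123 members were called, which follows from the rule for differences this small. All 3 BRAT ratios lay under all 3 PUM ratios for 214 members (87.0%), against 25.2% of all features. Because the rule used these ratios, nothing is read from that share. Among the 126 features lower in both RIPs, 41 (32.5%) were called lower with BRAT than with PUM.

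The limits of the set cut through a continuum. The 5 members closest to the BRAT threshold had mean ratios of -1.0055 to -1.0003, and the 5 nearest features beyond it, which met the other conditions, had -0.9997 to -0.9976. At the lower PUM limit, the 3 members just inside had mean PUM ratios of -0.585 to -0.578 and the 3 features just outside had -0.592 to -0.588. The upper PUM limit was thinly filled, with 0.535 to 0.569 just inside and 0.703 to 0.774 just outside. FBtr0083088, at -1.0003 in the BRAT RIP, and FBtr0077452, at -0.9997, differ in membership and not measurably in their BRAT ratio.

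The 5 features above the window, FBtr0072202, FBtr0080393, FBtr0084664, FBtr0086747 and FBtr0086748, show what the upper limit leaves out. FBtr0072202 had log2 signals of 11.53, 11.25 and 11.10 in the BRAT RIP, against 12.53, 12.66 and 12.18 in the control RIP. With PUM it had 13.78, 13.77 and 13.24, against 12.69, 12.90 and 12.59 in the control RIP of that set. It was lower than the control in every BRAT replicate and higher in every PUM replicate.

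Members had high signals in the control RIP. Their mean control signal in the BRAT set had a median of 12.48, against 11.64 over all features, and it was above the median of all features for 173 members (70.3%). In the BRAT RIP their median signal was 11.29, against 11.58 over all features, and 105 members (42.7%) were above the median. Ranked among all features, the median member stood at the 43.1 percentile in the BRAT RIP and at the 69.4 percentile in the control RIP. A low ratio favors features with a high control value, so the control level is not independent of the rule.

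In the PUM set, which was normalized apart, PUM RIPs gave the members a median of 12.36, against 11.86 over all features. The control RIPs of that set gave them 12.63, against 11.84. There the median member stood at the 63.0 percentile with PUM and at the 69.2 percentile with the control Fab. The rule holds PUM near the control and BRAT below it, so the order of these percentiles follows from the rule, and signals of different features are not a scale of abundance.

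Divided into 10 equal classes (deciles) by control signal, the highest class held 68 members (27.6%), against 10.0% of all features, and the lowest class held 8. Features lower in both RIPs were also above the middle in the control RIP, 89 of 126 (70.6%), but 21 of them (16.7%) lay in the highest decile. At log2 signals of 15 or more in the control RIP there were 18 members (7.32%), against 1.27% of all features. A member cannot average that high in the BRAT RIP under the rule. The log2 limit of a 16-bit scanner is 16, and saturation of single probes was not tested.

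**Figure D4:**
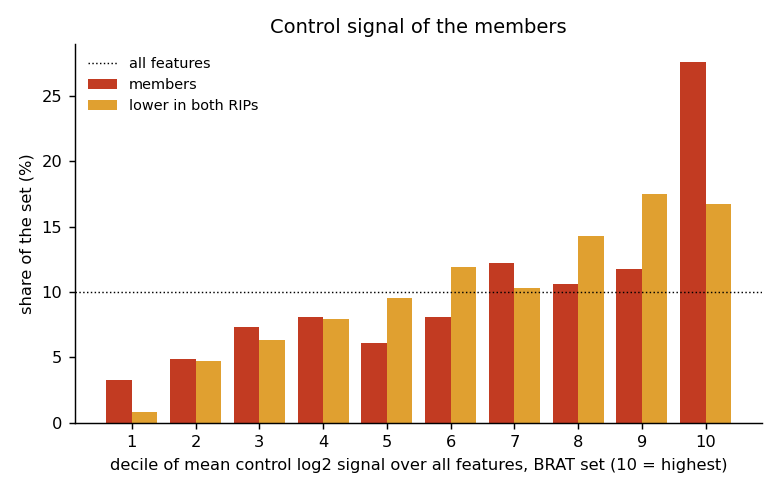
Share of the 246 members and of the 126 features lower in both RIPs (y axis, percent) in each decile of all features ranked by mean control log2 signal of the BRAT set (x axis). The dotted line is the share of all features. The highest decile holds 27.6% of the members and 16.7% of the features lower in both RIPs.

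The member with the highest control signal was FBtr0083055, with log2 signals of 14.82, 14.43 and 15.12 in the BRAT RIP against 15.99, 15.81 and 15.73 in the control RIP. The value in replicate 1 of the control was the highest of that array over all features, and replicate 1 of the BRAT RIP had the same highest value. These are normalized signals and not scanner readings, so how near the raw signal came to the limit of the scanner was not tested. Its ratios were -1.18, -1.38 and -0.61, and its PUM ratio was -0.15. FBtr0080050, the fifth highest, had a BRAT ratio of -1.11 and was slightly above the control with PUM in each replicate, with PUM ratios of 0.23, 0.21 and 0.24.

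At the other end, FBtr0076417 had the lowest control signal of any member. It had log2 signals of 6.62, 6.66 and 7.80 in the BRAT RIP, against 7.77, 8.02 and 8.51 in the control RIP, and replicate 3 of the BRAT RIP overlapped the control. The 5 members with the lowest control signal had SDs of their BRAT ratios between 0.33 and 0.99, and the 5 with the highest had 0.16 to 0.50, so the ranges overlapped. FBtr0078559 was the most uneven of these, with BRAT ratios of -2.01, -0.16 and -1.70, and without replicate 1 its mean was -0.93 and it was no longer called lower by limma. FBtr0087736, also dim, lost the call without replicate 2, at -0.65, and FBtr0074652 lost it without replicate 2, at -0.75, or without replicate 3, at -0.85.

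A measure that the choice had not used was obtained by choosing features by the rule on 2 replicates and reading their ratios in the third. Chosen on replicates 2 and 3, 282 features had a median BRAT ratio of -1.01 in replicate 1, against -0.17 over all features. Chosen without replicate 2, 312 features had -0.89 in it, against -0.09, and chosen without replicate 3, 288 features had -0.94, against -0.12. The BRAT ratio in the unused replicate was below 0 for 96.5%, 96.5% and 94.1% of the features so chosen, against 59.7%, 55.1% and 56.7% of all features. Features chosen on 2 replicates were thus also lower with BRAT in the third. Their median was just past the threshold in replicate 1 and short of it in replicates 2 and 3. These sets are not the 246 members, of which they held 176, 190 and 174. All replicates of a set were also normalized together, so the values describe the sets so chosen and are no separate test of the members.

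The unused replicate had a BRAT ratio of -1 or lower for 50.7%, 40.1% and 44.1% of the chosen features in replicates 1, 2 and 3, against 9.48%, 6.65% and 8.47% of all features. The PUM ratio lay inside the window for 68.8%, 79.8% and 80.9% of the chosen features, against 69.8%, 77.6% and 72.4% of all features. These shares were close to those of all features in replicates 1 and 2 and higher in replicate 3. The base of all features was not limited by the PUM ratios of the other replicates, while the chosen features were. Both conditions together held for 31.2%, 29.8% and 34.7%, against 5.40%, 4.47% and 5.44% of all features.

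**Figure D5:**
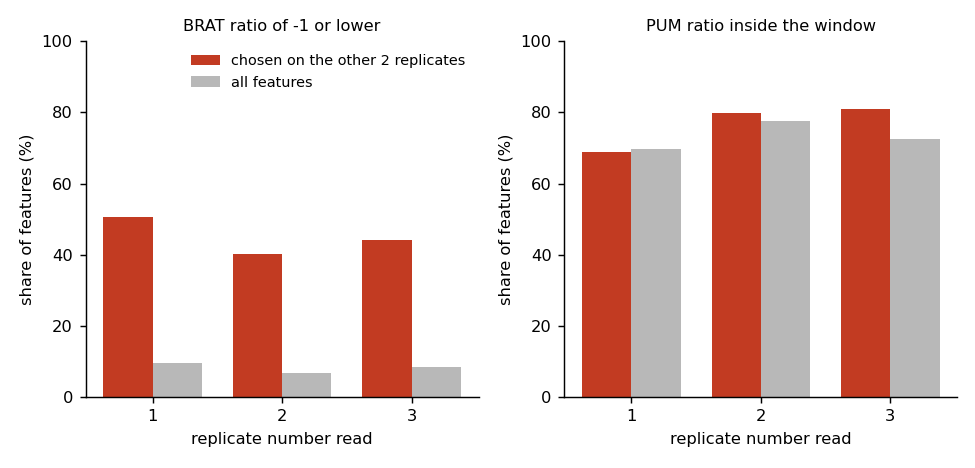
Share of features (y axis, percent) with a BRAT ratio of -1 or lower (left) and with a PUM ratio inside the window (right) in the replicate that did not choose them (x axis), for features chosen on the other 2 replicates and for all features. On the left the chosen features reach 40.1% to 50.7%, against 6.65% to 9.48% of all features. On the right both sets lie between 68.8% and 80.9%.

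The lean of the PUM ratios below 0 also appeared in unused replicates. The chosen features had median PUM ratios of -0.23, -0.22 and -0.12 in replicates 1, 2 and 3, and 69.5%, 70.5% and 63.9% of them were below 0, against 50.7%, 46.7% and 49.9% of all features. Their PUM ratio was under the lower limit of the window for 25.2%, 16.7% and 13.5%, against 13.9%, 8.17% and 13.2% of all features. The excess in replicate 3 was thus within a percentage point. In the unused replicates, too, BRAT and PUM ratios share the control preparation of that number.

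Membership itself was less stable than the ratios. Of the 246 members, 176, 190 and 174 were still chosen when replicate 1, 2 or 3 was left out, and 105 (42.7%) were chosen in all 3 cases. These 105 are the transcripts for which no single replicate decided that they were low with BRAT and inside the window with PUM.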

How the data were processed

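RNA from the BRAT, PUM and control RIPs was dye-labeled, as cDNA, and measured on custom NimbleGen arrays. The authors quantified and normalized the signals by RMA in ArrayStar, BRAT and PUM sets apart, and the deposited values were taken as log2 from their range, which ends just under 16. The quantile step makes ratios relative, so a change common to most RNA would not show. Of 17130 rows, 7186 held values in all 12 columns and the other 9944 held none. Scanner files were not used here. Arrays took a sample in either dye, but the sources do not name the pairs, so no fit has an array term.

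Ratios were RIP minus control within a replicate number. Fits used limma 3.58.1 in R 4.3.3 (lmFit, eBayes), two-sided, blocked by replicate number, with Benjamini-Hochberg adjustment over 7186 features, a threshold of 0.05 and at least 1.5-fold. The difference was fitted on BRAT ratio minus PUM ratio. The authors used SAM, for which limma stands in here. Numbers from the labels were used to pair the samples, and the authors' test was also a paired one. Deviations from the group means correlated at 0.297 to 0.532 between RIP and control of a number. The part of the dye in these correlations was not tested. The p-values rest on variances that eBayes draws from the spread between these 3 replicates toward a value pooled over all features. For FBtr0087517 the SD of the BRAT ratios was 0.0067, and the standard error in the fit was 0.159. The number of replicates limits the precision. Alternatives were other centering, cyclic loess, no block, another variance prior, other thresholds and windows, a filter on low signals and leaving out each replicate.

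Members and lists were chosen with earlier results of these data known. Named members were the 10 with the lowest BRAT ratio, the 5 with the smallest SD, the 5 with the highest and the 5 with the lowest control signal, and those nearest to each limit, of which some are described. FBtr0079235, FBtr0070096, FBtr0084171, FBtr0072202, FBtr0086748 were added after their values were seen. The parts of the rule that needed gene names (gene lists, tissue markers and known targets) were not applied, because the RefSeq gene table matched 37 features with values and 0 members. Python 3.11.15 and matplotlib 3.10.9 drew the figures.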

Additional observations from a re-analysis of the deposited data

Results flagged for a closer look

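The effects of the 2 antibodies differed by the limma test of the difference itself for 226 of the 246 members, which were lower with BRAT than with PUM (91.9%, against 22.2% of all features). The count was 177 with the ratios centered, where 1077 of 7186 features were called. It was 158 without the replicate block, where 1044 of 7186 features were. The rule used both ratios, so this is a description. Groups held 3 samples and were not tested for single samples far from the others.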

How the results depend on the processing

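The number of features meeting the rule followed its limits and the normalization. It was 246 as given and 136 with each replicate's ratios centered on their median. After cyclic loess it was 179, of which 175 were among the 246, and with low-signal features left out it was 214. It was 14 with a BRAT threshold of -1.5, 110 with the PUM window narrowed to 0.2925 on either side and 113 with all 3 PUM ratios inside the window. It was 282 to 312 when a replicate was left out. The members' median BRAT ratio was -1.16 as given, -1.03 centered, -1.09 after cyclic loess and -1.19 to -1.12 with a replicate left out, and the median PUM ratio was -0.31 to -0.26. Members called lower in the BRAT RIP numbered 242 to 244, those called lower with BRAT than with PUM 183 to 202 and those called in the PUM RIP 0 to 2 with a replicate left out. At a fold threshold of 2, 94 members were called lower with BRAT than with PUM, with 379 features lower in the BRAT RIP and 514 lower with BRAT than with PUM. With a replicate left out these feature counts were 1331 to 1439 and 1215 to 1509.

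Without the replicate block, 931 features were called lower in the BRAT RIP and 1044 lower with BRAT than with PUM, against 1519 and 1593 with the pairing. Members called lower with BRAT than with PUM then numbered 158. Of calls in the BRAT RIP over all features, 47.5% were higher as given, 60.7% centered and 55.3% after cyclic loess. Of calls for the difference, 56.3% were lower with BRAT as given, 42.1% centered and 47.5% after cyclic loess. For the 25 members named for their BRAT ratio, SD or control signal, 352 alternative values kept direction and an adjusted p under 0.05 and 20 kept direction but lost it. FBtr0088947 and FBtr0081824 were not under 0.05 for the difference as given and stayed so in 14 values. The 2 values that passed were both of FBtr0081824, with another variance prior and with low-signal features left out. No value changed direction. The causes were not tested. With 3 replicates and no scanner files, differences near a threshold and the highest normalized signals are the least certain.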
